A study of Homo sapiens
Mus musculus and Mus musculus and Homo sapiens with 16 samples.

Results

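The genes described here are Ptgs2, which encodes the inducible cyclooxygenase, and 9 further mouse genes of prostaglandin synthesis, breakdown and response: Ptgs1, Ptges, Ptges2, Ptges3, Ptgis, Pla2g4a, Hpgd, Ptger2 and Ptger4. They were picked by symbol, and all 10 were found among the 49671 genes of the mouse count table. The choice was made with earlier results of the same libraries in view, in which Ptgs2 was lower in stromal cells that carried lymphoma cells. Values of these 10 genes in the stromal cells are therefore given as a description, without a p-value, and the number of them that met the call rule is stated once, beside its share over all genes, with nothing read from it.

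The cells were MS-5, a stromal cell line derived from mouse bone marrow, and REC-1, a human mantle cell lymphoma (MCL) line. For coculture, 500000 MS-5 cells were plated and 5000000 REC-1 cells were added, and RNA was taken after 24 h. There were 4 libraries each of MS-5 cells alone, of MS-5 cells together with the REC-1 cells adhered to them (Adh), of the REC-1 cells left in suspension during coculture (Susp) and of REC-1 cells in monoculture (Sep). Mouse counts of the Adh libraries were read as MS-5 cells in coculture, and human counts of the same libraries as adhered REC-1 cells. No drug was given and no gene was altered in these groups. A single stromal line and a single lymphoma line stood for each cell type. The labels do not say whether the 4 libraries of a group came from separate cultures. Legends of the paper give 4 independent experiments for the lymphoma fractions. The p-values measure the spread between these libraries only.

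Prostaglandins are short-range lipid signals. A phospholipase releases arachidonic acid from membranes, a cyclooxygenase turns it into prostaglandin H2, and a terminal synthase converts that into a final product such as prostaglandin E2 or prostacyclin. Cells take up and degrade the product, or sense it through receptors, of which EP2 and EP4 raise cyclic AMP. Bone marrow stromal cells are a known source of prostaglandin E2, and Ptgs2 is known as a gene whose transcript is switched on by inflammatory signals and is short-lived, in part through AU-rich elements in its 3′ untranslated region (UTR).

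The AU-rich elements set Ptgs2 apart in sequence from most of the other genes described here. Each sequence below is the 30-base stretch of the 3′ UTR with the most copies of the pentamer ATTTA, with ATTTA in capitals, read 5′ to 3′ on the mRNA strand of the principal transcript (GRCm38, GENCODE M21). They are shown for Ptgs2, for Pla2g4a and Ptger4, and for Cxcl1, Ccl2 and Plaur, which are the inflammatory genes that met the call rule with a lower level in coculture (below).
Ptgs2: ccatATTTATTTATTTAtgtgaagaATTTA
Pla2g4a: acactatttttATTTAaatgtttatATTTA
Ptger4: tattgttggaaatataATTTAaggtATTTA
Cxcl1: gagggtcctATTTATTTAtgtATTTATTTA
Ccl2: tgatgccttaattaatattaaacttATTTA
Plaur: tattattatcattgttattgctctaATTTA
The stretches lie at chr1:150105794-150105823 (plus strand) for Ptgs2, chr1:149829662-149829691 (minus strand) for Pla2g4a, chr15:5234223-5234252 (minus strand) for Ptger4, chr5:90892602-90892631 (plus strand) for Cxcl1, chr11:82037193-82037222 (plus strand) for Ccl2 and chr7:24475664-24475693 (plus strand) for Plaur. That of Ptgs2 begins at base 12 of its 3′ UTR. The whole 3′ UTR of Ptgs2 has 2445 bases with 14 copies of ATTTA and 6 of the heptamer TATTTAT, which contains ATTTA, overlapping copies included. The 3′ UTRs of Ptgs1, with 921 bases, and of Ptges, with 3106 bases, have no copy of either, and neither does Ptgis with 417 bases. Ptges2 and Ptges3 have 4 copies of ATTTA each and no TATTTAT, Hpgd has 4 and 1, and Ptger2 has 6 and 1. Pla2g4a has 4 copies of ATTTA in 443 bases and no TATTTAT, and Ptger4 has 5 and 2 in 1233 bases. Among the other inflammatory genes, Cxcl1 has 7 and 6 in 592 bases, Ccl2 has 1 ATTTA in 275 bases and Plaur has 2 in 496 bases, neither with a TATTTAT. In the first 300 bases of the 3′ UTR, Ptgs2 has 4 copies of TATTTAT, Cxcl1 has 5 and Hpgd has 1. Of 15671 genes with a 3′ UTR at least that long, 6.91% have a TATTTAT there, 33.9% have an ATTTA and 3.38% have at least 3 of them. A match describes the letters and not a bound site.

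Ptgs2 (chr1:150100031-150108227, plus strand) and Pla2g4a (chr1:149829618-149961290, minus strand) are neighbours, with 138740 bases between them, and the human genes lie 148026 bases apart on human chromosome 1. Ptgs1, Ptges, Ptges2 and Ptgis are on mouse chromosome 2, Ptges3 on chromosome 10, Hpgd on chromosome 8, Ptger2 on chromosome 14 and Ptger4 on chromosome 15.

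The stromal identity of the mouse counts was checked first. Of 10 stromal markers, 9 had counts in both groups and Thy1 was at 0, and their summed level was 5548 to 5847 CPM (counts relative to library size, the latter adjusted by edgeR's TMM factors) in MS-5 cells alone and 5580 to 6400 in Adh libraries. Of 6 mouse B cell markers, Cd79b, Cd22 and Pax5 were at 0 in all 8 libraries, Ms4a1 and Cd79a were at 0 in MS-5 cells alone and had at most 2 counts each in an Adh library, and Cd74 had 2 to 5 counts alone and 2 to 15 in Adh libraries. The 6 summed to 0.139 to 0.398 CPM alone and 0.118 to 0.431 CPM in Adh libraries, and their part in the results was not tested. The macrophage markers Ptprc, Adgre1 and Itgam were also at 0, and the whole list of 6 summed to 5.02 to 6.37 CPM in MS-5 cells alone and 5.37 to 7.91 in coculture. Mouse counts per library lay between 10097555 and 17397651 in MS-5 cells alone and between 29495404 and 34615602 in Adh libraries, and human counts over the 12 REC-1 libraries between 7758979 and 21467832. Depth thus differed between the stromal groups, and only the Adh libraries held both species, so that effects of coculture and of mixing cannot be told apart.

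MS-5 cells held transcripts for each step of a route to prostaglandin E2, while enzymes and prostaglandin E2 itself were not measured. Per length, in RPKM (CPM per kilobase of exon, mean of 4 libraries), the levels in MS-5 cells alone ran from Ptges3 at 166.7 through Ptgs1 at 77.7, Ptgs2 at 40.9, Ptges at 18.7, Pla2g4a at 13.1 and Ptges2 at 6.22 to Ptger4 at 1.52. In coculture the order was the same, from Ptges3 at 169.5 through Ptgs1 at 66.2, Ptgs2 at 19.2, Ptges at 15.5, Pla2g4a at 10.3 and Ptges2 at 5.79 to Ptger4 at 1.20. The neighbours Ptgs2 and Ptges came closest there, with libraries from 17.2 to 23.6 RPKM and from 14.1 to 16.5 RPKM, which did not overlap. Ptgis, Hpgd and Ptger2 were at or near 0. Of the 10 genes, 7 passed the filter on low counts.

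Pla2g4a encodes cytosolic phospholipase A2, which releases arachidonic acid. Its level was 80.5, 88.6, 80.8 and 85.8 CPM in MS-5 replicates 1 to 4 and 66.4, 68.7, 64.8 and 63.9 CPM in Adh replicates 1 to 4. The groups did not overlap, and the gap between them was wider than the spread within either. The mean was 83.9 ± 3.94 CPM (SD, n = 4) alone and 65.9 ± 2.09 in coculture, a log2 fold change of -0.35 with an SE of 0.059.

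Ptgs1 encodes the constitutive cyclooxygenase and was the more abundant of the pair. It was measured at 298.9, 298.3, 302.5 and 308.0 CPM alone and at 291.8, 253.6, 237.3 and 245.6 CPM in coculture. All 4 Adh libraries lay below all MS-5 libraries, although Adh replicate 1 came close to them. The means were 301.9 ± 4.48 and 257.1 ± 24.1 CPM (SD, n = 4), a log2 fold change of -0.23 with an SE of 0.060. An antisense gene, Gm43621, overlaps Ptgs1, and without information on strand its reads cannot be told from those of Ptgs1.

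Ptgs2 gave the largest difference of the 10 genes. MS-5 replicates 1 to 4 held 178.6, 184.0, 168.4 and 217.8 CPM of Ptgs2, and Adh replicates 1 to 4 held 108.0, 78.9, 83.4 and 81.1 CPM. The highest Adh library lay well below the lowest MS-5 library, and within coculture replicate 1 stood above the other 3. The mean was 187.2 ± 21.4 CPM (SD, n = 4) alone and 87.9 ± 13.5 in coculture, which is a ratio of 0.470 and a log2 fold change of -1.09 with an SE of 0.098. Without Adh replicate 1, an alternative chosen after seeing the data, the log2 fold change was -1.20, and with each replicate left out in turn from both groups it ran from -1.23 to -0.97. In bulk RNA, fewer cells with the transcript and less of it per cell cannot be told apart.

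**Figure D1:**
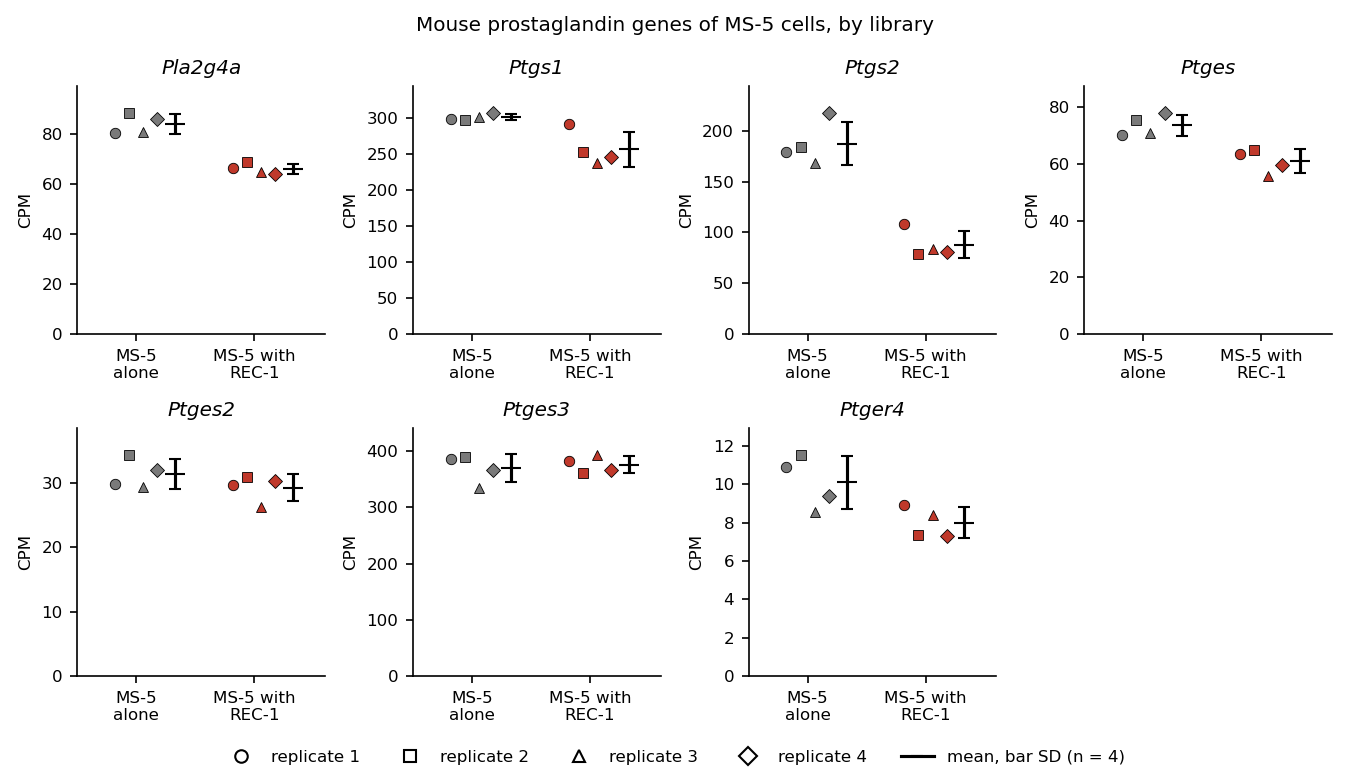
Level in CPM (linear axes from 0) of the 7 prostaglandin genes above the filter, in the 4 libraries of MS-5 cells alone (grey) and the 4 of MS-5 cells with adhered REC-1 cells (red). Symbols give the replicate number, which the main tests did not use to pair libraries, and bars the mean ± SD. Ptgs2 falls from 168.4 to 217.8 CPM alone to 78.9 to 108.0 CPM in coculture, while Ptges2, Ptges3 and Ptger4 overlap.

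The balance of the cyclooxygenases moved with it. On the per-length scale, the ratio of Ptgs2 to Ptgs1 was 0.507, 0.523, 0.472 and 0.60 in MS-5 replicates 1 to 4 and 0.314, 0.264, 0.298 and 0.280 in Adh replicates 1 to 4. Its mean was 0.526 ± 0.0538 (SD, n = 4) alone and 0.289 ± 0.0216 in coculture. Ptgs1 was thus the major cyclooxygenase transcript in all 8 libraries, and its lead was larger in each Adh library than in any MS-5 library. The summed level of both cyclooxygenases was 118.6 ± 5.59 RPKM alone and 85.4 ± 8.98 RPKM in coculture (SD, n = 4), ranging from 114.7 to 126.9 and from 79.3 to 98.7.

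The terminal synthases of prostaglandin E2 differed among themselves. Ptges, the inducible microsomal synthase that works together with the Ptgs2 enzyme, was at 70.0, 75.3, 70.7 and 78.1 CPM alone and at 63.6, 64.9, 55.6 and 59.6 CPM in coculture. The groups did not overlap, but the nearest libraries lay closer together than the extremes of either group. Mean levels of 73.5 ± 3.84 and 60.9 ± 4.21 CPM (SD, n = 4) gave a log2 fold change of -0.27 with an SE of 0.067. As Ptges was less reduced than Ptgs2, the per-length ratio of Ptges to Ptgs2 was 0.460 ± 0.0313 alone and 0.819 ± 0.116 in coculture.

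Ptges2, a second membrane-associated synthase, had 29.9, 34.4, 29.3 and 32.1 CPM alone and 29.7, 30.9, 26.3 and 30.3 CPM in coculture. Its libraries overlapped between groups, with a log2 fold change of -0.10 and an SE of 0.082. Ptges3, which encodes the cytosolic synthase also known as the HSP90 co-chaperone p23, had 386.4, 390.1, 334.8 and 366.9 CPM alone and 381.7, 361.9, 393.8 and 366.0 CPM in coculture. These values also overlapped, and the log2 fold change of 0.02 with an SE of 0.055 took the opposite sign, -0.04, without replicate 3.

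Transcripts of Ptgis, Hpgd and Ptger2 were at or near 0 in MS-5 cells. Ptgis, the prostacyclin synthase gene, had 2, 0, 0 and 2 counts in MS-5 replicates 1 to 4 and 2, 0, 0 and 0 in Adh replicates 1 to 4. Hpgd, which encodes the dehydrogenase of the first step of prostaglandin inactivation, and Ptger2, which encodes EP2, had 0 counts in all 8 libraries. Gm45540 overlaps Hpgd on the same strand, and Gm17173 and Gm49364 overlap Ptger2 on the other strand. Whether these overlaps bear on the counts of 0 was not tested. A count of 0 over a whole group allows up to 3 counts, or 0.0548 CPM in MS-5 cells alone and 0.0232 CPM in coculture, for counting error only. The prostaglandin reductase genes Ptgr1, Ptgr2 and Zadh2, also of breakdown, were expressed, with up to 1092, 1116 and 3499 counts in a library and log2 fold changes of -0.03, 0.07 and 0.06 (adjusted p = 0.95, 0.791 and 0.833 in edgeR's test), and were named after their values were seen.

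Ptger4 encodes EP4 and was the only EP2 or EP4 receptor gene with a level above the filter. It had 10.9, 11.5, 8.56 and 9.39 CPM alone and 8.92, 7.35, 8.40 and 7.28 CPM in coculture. The groups overlapped by a single library on each side. The means were 10.1 ± 1.36 and 7.99 ± 0.805 CPM (SD, n = 4), with a log2 fold change of -0.33 and an SE of 0.13. The gene overlaps Ttc33 on the other strand by gene position, and whether their exons overlap was not examined.

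Of the 7 genes above the filter, 6 had a log2 fold change below 0, where 50.4% of all 12201 tested mouse genes did, and their median was -0.27 against -0.00 over all genes. In 4 of them, Pla2g4a, Ptgs1, Ptgs2 and Ptges, every Adh library lay below every MS-5 library, which held for 3.68% of all tested genes. Only Ptgs2 was called in edgeR's quasi-likelihood test, where a call needed an adjusted p not above 0.05 together with a change of 1.5-fold or more. In all, 25 mouse genes were called, 0.205% of those tested, 20 of them lower in coculture (0.164%). Among the 8899 genes with a mean of at least 10 CPM in a group, Ptgs2 had the 4th lowest log2 fold change, and among the 25 called genes of any level the 7th lowest. As these values chose the genes, nothing is read from the counts or from the ranks.

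**Figure D2:**
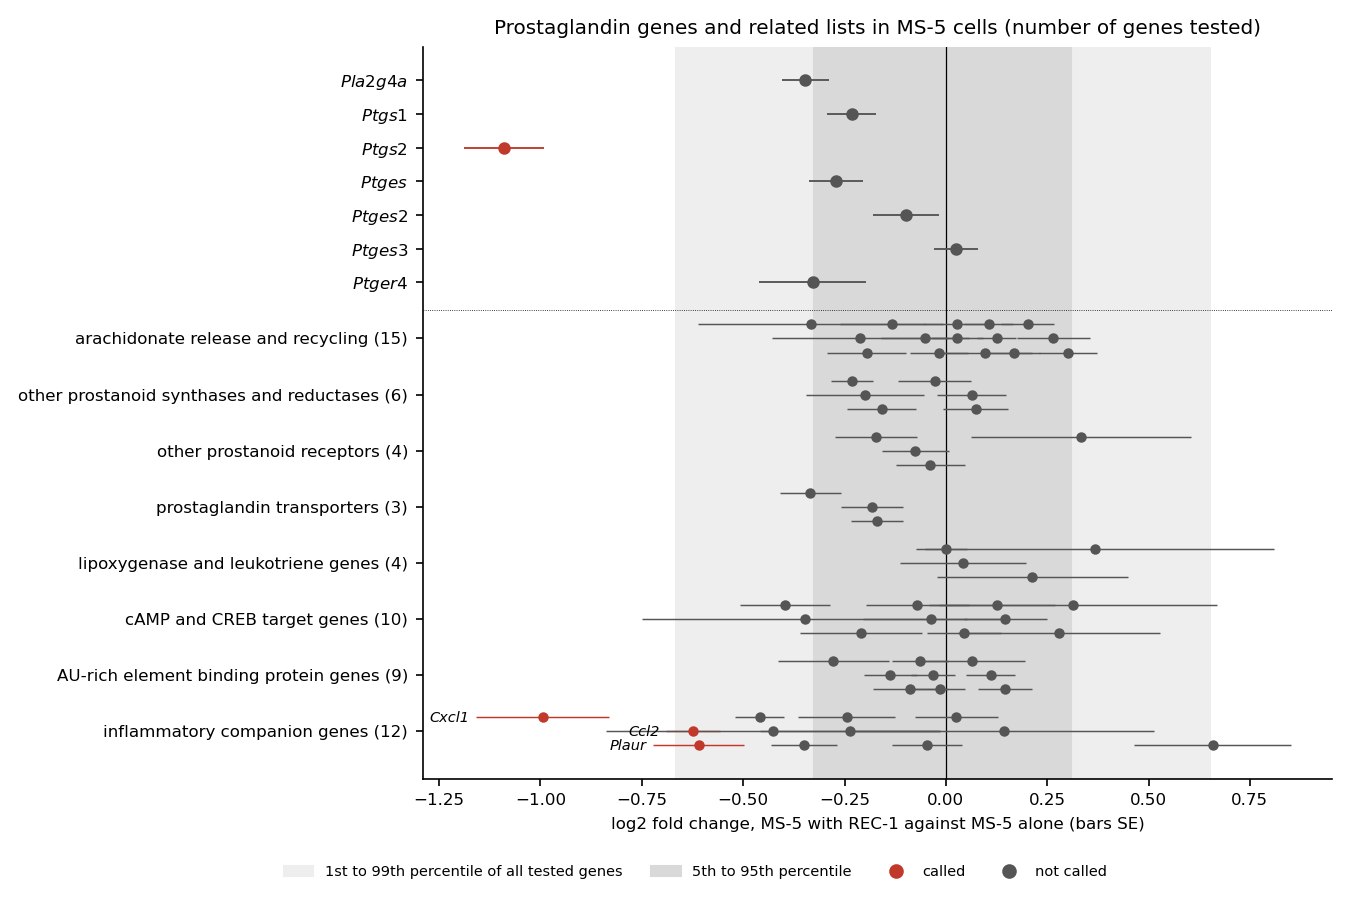
Log2 fold change (x axis, bars SE) between MS-5 cells with adhered REC-1 cells and MS-5 cells alone for the 7 prostaglandin genes above the filter (top rows) and for every tested gene of 8 further lists, with called genes in red. Grey bands mark the middle ranges of all 12201 tested genes. Ptgs2 at -1.09 and Cxcl1 at -0.99 lie below the wider band, and Mmp13 at 0.66 lies just above it without a call. No gene of the other eicosanoid lists was called.

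The rest of the eicosanoid pathway was followed through 58 other genes. Of these, 32 were tested, with 16 log2 fold changes below 0, 16 above 0 and a median of -0.01, and none was called by edgeR or by DESeq2. At an unadjusted p below 0.05 there were 9 genes, beside 11.3% of all tested genes. The list of release and recycling of arachidonic acid had 15 tested genes with log2 fold changes between -0.33 and 0.30, of which 6 were below 0. The 6 tested synthases and reductases lay between -0.23 and 0.07, and the 4 tested receptors, Ptgir, Tbxa2r, Pparg and Ppard, between -0.17 and 0.33. Lipoxygenase and leukotriene genes were mostly below the filter, with 4 of 14 tested.

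The 3 prostaglandin transporter genes and Ptgir were named after their values were seen. Slco2a1 encodes the carrier that takes prostaglandins up into cells, and it was abundant, at 354.6, 454.4, 411.8 and 388.7 CPM alone and 305.7, 358.6, 316.2 and 296.0 CPM in coculture. A single Adh library, replicate 2, reached into the range of the MS-5 libraries. The log2 fold change was -0.33 with an SE of 0.074 and an adjusted p of 0.0523 in edgeR's test, and over the alternatives the adjusted p ran from 6.59e-06 to 0.367 without a call. The exporter gene Abcc4 had a log2 fold change of -0.17 (adjusted p = 0.315) and Slco3a1 one of -0.18 (adjusted p = 0.368). All 3 had an unadjusted p below 0.05 and none was called. Ptgir, the prostacyclin receptor gene, was present at 30.4 ± 4.60 CPM alone and 27.0 ± 2.05 CPM in coculture (SD, n = 4), with a log2 fold change of -0.17 and an adjusted p of 0.565, although its ligand's synthase gene was near 0.

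Genes that cyclic AMP switches on through CREB, which EP4 can activate, did not yield a call in MS-5 cells. Of 12 such genes 10 were tested, 5 below and 5 above 0 with a median of 0.00, and 1, Dusp1, had an unadjusted p below 0.05. Genes for proteins that bind AU-rich elements were all tested. None of these 9 was called, with log2 fold changes from -0.28 to 0.15, and Zfp36l2 alone had an unadjusted p below 0.05. DESeq2 called no gene of either list.

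Inflammatory genes that are often induced together with Ptgs2 gave 3 calls among 12 tested of 20, all lower in coculture, beside 0.164% of all tested genes. The list was set with earlier results in view, so the count is not independent evidence. Of the 12, 9 had a log2 fold change below 0 (50.4% of all tested genes), the median was -0.30, and in 5 every Adh library lay below every MS-5 library (3.68%). Ccl7 had an adjusted p of 0.00168 but a log2 fold change of -0.46, short of the fold minimum, and Mmp13 had the highest log2 fold change of the list, 0.66 with an SE of 0.19, without a call (adjusted p = 0.165 in edgeR's test). Both were named after their values were seen.

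Ccl2, a chemokine that draws monocytes, was at 107.8, 126.0, 113.4 and 122.0 CPM alone and at 77.8, 80.7, 69.3 and 76.3 CPM in coculture. The groups were well apart. Means of 117.3 ± 8.21 and 76.0 ± 4.82 CPM (SD, n = 4) gave a log2 fold change of -0.62 with an SE of 0.067 and an adjusted p of 0.000264 in edgeR's test, and the call held in all 11 alternatives, with adjusted p up to 0.00999. The antisense gene Gm17268 overlaps Ccl2.

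Cxcl1, a neutrophil chemokine, was low, at 5.30, 6.77, 8.22 and 7.67 CPM alone and 3.90, 3.27, 3.57 and 3.30 CPM in coculture. The libraries did not overlap, and those of the Adh group lay close together. The log2 fold change was -0.99 with an SE of 0.17 and an adjusted p of 0.0107 in edgeR's test. The call was lost with all libraries thinned to the smallest (adjusted p = 0.0681) and without replicate 2, 3 or 4 (0.0674, 0.154 and 0.113).

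Plaur encodes the urokinase receptor, and its levels were 37.5, 47.1, 50.6 and 43.4 CPM alone and 30.7, 34.5, 23.9 and 28.0 CPM in coculture. MS-5 replicate 1 and Adh replicate 2 were the nearest libraries of the groups. The log2 fold change was -0.61 with an SE of 0.11 and an adjusted p of 0.016 in edgeR's test, and the call was lost without replicate 3 (-0.45, adjusted p = 0.217) or replicate 4 (-0.60, adjusted p = 0.132).

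The variation of Ptgs2 inside the groups was compared with that of other genes, after each group's mean was subtracted from log2 CPM. Over the 8 stromal libraries and 8898 other genes, Nfia, Trim12c, Golph3, Pik3ca and Cnot11 were most like Ptgs2, with Pearson's r of 0.98, 0.96, 0.95, 0.94 and 0.92. None of these 5 was called between the groups, with log2 fold changes from -0.00 to 0.27. Ptgs1 followed Ptgs2 with r = 0.77 (rank 125), Ptges with 0.50, Ptger4 with 0.40, Ptges3 with 0.30, Pla2g4a with 0.29, Ptges2 with 0.20, Ccl2 with 0.29 and Plaur with -0.04. Adh replicate 1 was the highest Adh library for both Ptgs2 (108.0 CPM) and Ptgs1 (291.8 CPM), and how far their likeness rests on it was not tested. With only 8 libraries and many genes compared, such values describe these libraries alone.

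In the Adh libraries stromal and lymphoma transcripts of the same gene could be set side by side, since both were read from the same RNA. Human counts made up 18.3% to 28.2% of the counted fragments. Human stromal marker genes were as low in Adh libraries, at 4.04 to 5.91 CPM in sum, as in REC-1 cells that had seen no stroma, at 3.94 to 5.34 CPM. Cyclooxygenase transcripts were nearly all stromal. Ptgs2 had 3656, 2319, 2901 and 2552 mouse counts in Adh replicates 1 to 4, and PTGS2 had 32, 16, 4 and 20 human counts, which per kilobase is a ratio of 136.8 to 868.4. Ptgs1 exceeded PTGS1 by 173.3 to 558.5 times per kilobase. Ptges had 1876 to 2153 counts and PTGES had 0 in all 4 libraries. Pla2g4a exceeded PLA2G4A by 18.1 to 84.5 times, and Ptges2 exceeded PTGES2 by 1.94 to 3.42 times, in libraries in which mouse counts were the majority. Ptges3 and PTGES3 were near parity, with ratios of 0.883 to 1.60. These ratios describe the mixed RNA and depend on the share of each species. Scaled to the counts of its own species, PTGES3 was at 487.3 RPKM and Ptges3 at 169.5 (means of the Adh libraries). On that scale PTGES2 was at 8.18 and Ptges2 at 5.79 RPKM, so the human gene was the higher of each pair.

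The receptor EP4 had the opposite distribution. Ptger4 had 302, 216, 292 and 229 mouse counts in Adh replicates 1 to 4, and PTGER4 had 710, 558, 406 and 442 human counts. Per kilobase the human gene was 2.61 to 4.85 times higher in each library, although human fragments were the minority. Counts of the inactivating dehydrogenase came from the lymphoma cells only, with 16 to 46 of HPGD and 0 of Hpgd. An antisense gene overlaps HPGD, and Gm45540 overlaps Hpgd on the same strand. In the mixed RNA of the 4 Adh libraries Pla2g4a, both cyclooxygenases and Ptges were thus mainly mouse transcripts and EP4 mainly a human one per kilobase. Ptges3 was near parity in that RNA, though not relative to the counts of each species. Gene lengths are unions of exons and differ between species.

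**Figure D3:**
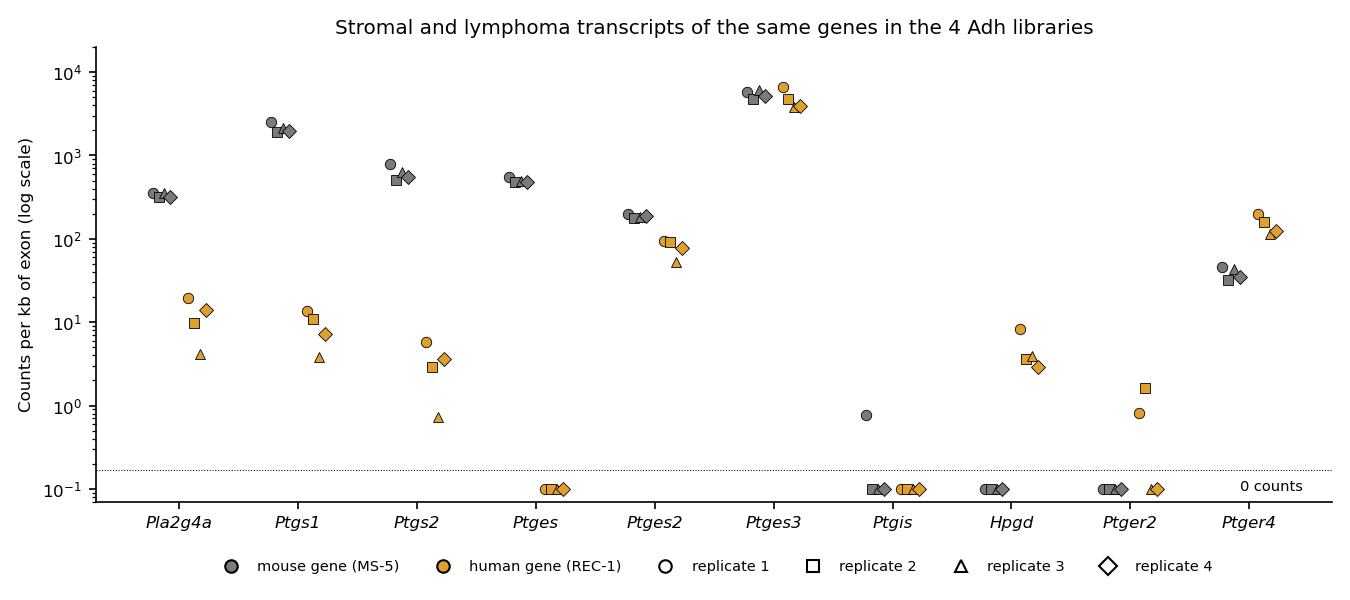
Counts per kilobase of exon (log axis) of the mouse gene (grey, MS-5) and its human counterpart (orange, REC-1) in the 4 Adh libraries, 1 symbol per replicate, with counts of 0 drawn below the dotted line. Stromal Ptgs2 lies 136.8 to 868.4 times above PTGS2, whereas PTGER4 lies 2.61 to 4.85 times above stromal Ptger4.

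The human counterparts were then compared between the REC-1 groups, which the choice of genes did not use. Of the 10 genes, 7 were tested and none was called between Adh and Sep, Susp and Sep or Adh and Susp cells by edgeR or DESeq2, where 2.40%, 0.731% and 0.778% of 12861 tested genes were called. The contrasts share libraries and are not independent. Unadjusted p-values below 0.05 were found for PTGES3 between Adh and Sep cells (20.2% of all tested genes), for PLA2G4A and PTGES2 between Adh and Susp cells (18.0%), and for none between Susp and Sep cells (16.7%).

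PTGER4 was the only gene of a cell-surface prostanoid receptor above the filter in REC-1 cells. It was at 48.3, 54.2, 49.8 and 58.9 CPM in Sep replicates 1 to 4, at 53.5, 47.5, 52.1 and 52.0 CPM in Susp and at 53.4, 53.7, 52.2 and 56.7 CPM in Adh cells. All 3 groups overlapped. Between Adh and Sep cells the log2 fold change was 0.03, with a 95% confidence interval of -0.16 to 0.22 and an adjusted p of 0.886 in edgeR's test, and between Adh and Susp cells it was 0.08, with an interval of -0.12 to 0.27. The gene overlaps TTC33 on the other strand. PTGER2 had between 0 and 4 counts per library.

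The remaining genes of REC-1 cells were low except PTGES3 and PTGES2. PTGES3 was at 1420 ± 116 CPM in Sep, 1511 ± 118 in Susp and 1656 ± 61.5 in Adh cells (SD, n = 4), with a log2 fold change of 0.22 between Adh and Sep cells (adjusted p = 0.119 in edgeR's test). Its 5 pseudogenes in the human table may share its reads. PTGES2 was at 54.7 ± 11.2, 64.4 ± 10.5 and 49.8 ± 9.28 CPM. PTGS1 had 6.16 ± 0.922, 6.86 ± 1.30 and 5.06 ± 1.52 CPM, and PTGS2 had 2.20 ± 0.275, 1.39 ± 0.315 and 1.76 ± 0.943 CPM. For PTGS2 the 95% interval of the log2 fold change between Adh and Sep cells, -1.08 to 0.49, was wide, and an antisense gene, PACERR, overlaps it. HPGD had 3.21 ± 0.614, 3.67 ± 1.08 and 2.57 ± 0.716 CPM and PLA2G4A 2.43 ± 0.270, 2.09 ± 0.566 and 3.39 ± 1.59 CPM in Sep, Susp and Adh cells. PTGES and PTGIS had 0 counts in all 12 libraries.

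Among 58 other eicosanoid genes 31 were tested in REC-1 cells, and 3 were called between Adh and Sep cells, beside 2.40% of all tested genes. The largest change was that of PTGR2, a reductase gene with at most 19 counts in a library. Its log2 fold change was -1.89 (adjusted p = 0.0514 in edgeR's test), without a call by edgeR. DESeq2 called 1 of the 6 tested genes of its list, the other prostanoid synthases and reductases. LTB4R2 was at -1.19 (adjusted p = 0.0647 in edgeR's test), also without a call by edgeR. In its list of lipoxygenase and leukotriene genes, DESeq2 called 2 of 8 tested genes. PTGR2 and LTB4R2 were named after their values were seen. LTB4R encodes the receptor of leukotriene B4, a neutrophil attractant made by the lipoxygenase branch. It fell from 8.50, 14.6, 10.99 and 17.3 CPM in Sep replicates 1 to 4 to 4.36, 5.49, 6.17 and 6.93 CPM in Adh replicates 1 to 4, with 11.7, 14.4, 11.9 and 11.2 CPM in Susp cells. Each Adh library lay below each library of the other groups. The log2 fold change was -1.18 with an SE of 0.22 against Sep cells (adjusted p = 0.00513 in edgeR's test) and -1.12 with an SE of 0.21 against Susp cells (adjusted p = 0.0169). The second call was lost without replicate 2 (adjusted p = 0.0768) or replicate 3 (0.177). LTB4R shares 604 bases with LTB4R2 on the same strand, so that reads there could belong to either.

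MGLL encodes monoacylglycerol lipase, which can supply arachidonic acid from an endocannabinoid. Its level was 15.7, 13.3, 14.2 and 16.3 CPM in Sep, 20.6, 19.8, 21.4 and 19.2 CPM in Susp and 24.1, 28.2, 30.3 and 25.7 CPM in Adh replicates 1 to 4. No library of a group overlapped another group. The rise from Sep to Adh cells was 0.86 on the log2 scale with an SE of 0.12 (adjusted p = 0.000491 in edgeR's test) and was called in all 11 alternatives. The differences from Sep to Susp cells (0.44, adjusted p = 0.0797) and from Susp to Adh cells (0.41, adjusted p = 0.09) did not pass. FADS1, a desaturase on the path to arachidonic acid, was at 26.8, 24.3, 25.7 and 32.8 CPM in Sep, 37.5, 29.4, 44.6 and 45.0 CPM in Susp and 43.8, 47.9, 50.4 and 49.9 CPM in Adh cells. It rose from Sep to Adh cells by 0.81 on the log2 scale with an SE of 0.14 (adjusted p = 0.00314 in edgeR's test), a call lost without replicate 3 (0.75, adjusted p = 0.0685). From Sep to Susp cells the change was 0.51 (adjusted p = 0.0849), and it was called without Susp replicate 2 (0.62, adjusted p = 0.00604). Both MGLL and FADS1 overlap antisense genes.

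**Figure D4:**
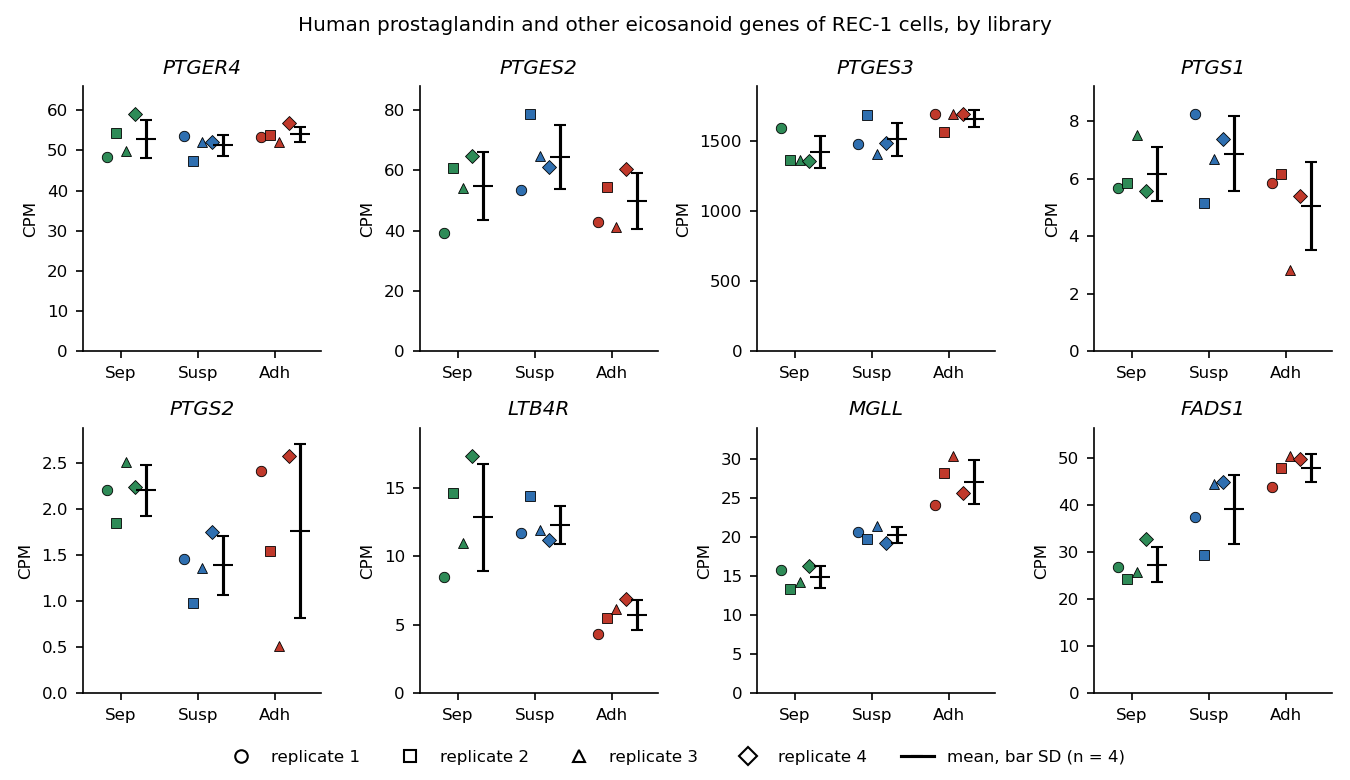
Level in CPM (linear axes from 0) of 5 human counterparts and the 3 called eicosanoid genes in REC-1 cells from monoculture (Sep), from the suspension over stroma (Susp) and from the stroma-bound fraction (Adh), with 4 libraries each, symbols for replicates and bars for mean ± SD. PTGER4 stays between 47.5 and 58.9 CPM in all 12 libraries, while LTB4R is lower and MGLL and FADS1 are higher in Adh than in Sep libraries.

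No gene of the 58 was called between Susp and Sep cells by edgeR or DESeq2, and 4 had an unadjusted p below 0.05. Of the listed lipoxygenase genes only ALOX5 was high in REC-1 cells. ALOX12, ALOX15, ALOX15B, ALOX12B and ALOXE3 had at most 20, 10, 2, 13 and 0 counts in an Adh or Sep library. ALOX5, the gene of the enzyme that starts leukotriene synthesis, was at 233.5 ± 11.96 CPM in Sep, 247.3 ± 9.11 in Susp and 203.3 ± 18.7 in Adh cells (SD, n = 4), and every Adh library lay below every Susp library without a call (log2 fold change -0.28, adjusted p = 0.104 in edgeR's test). CYSLTR1, a receptor gene for cysteinyl leukotrienes, was at 48.2 ± 8.19, 49.2 ± 5.45 and 60.6 ± 2.89 CPM, again without a call between Adh and Sep cells (0.33, adjusted p = 0.128). Of the cyclic AMP and CREB target genes 9 were tested in REC-1 cells. RGS2, which encodes a brake on G protein signaling, was the single call by edgeR between Adh and Sep cells, beside 2.40% of all tested genes, at 15.6 ± 2.70 and 23.7 ± 1.32 CPM (SD, n = 4). Its log2 fold change was 0.61 with an SE of 0.14 and an adjusted p of 0.0242 in edgeR's test, and the call was lost without replicate 1, 2 or 4 (adjusted p = 0.077, 0.0563 and 0.266). DESeq2 called 2 genes of this list, RGS2 and NR4A3, the latter with a log2 fold change of 0.81 and an adjusted p of 0.0229 against 0.0689 in edgeR. ALOX5 and the other lipoxygenase genes, CYSLTR1, RGS2 and NR4A3 were named after their values were seen.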

How the data were processed

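Gene counts of 16 libraries were analysed, from mouse counts of MS-5 and Adh libraries and human counts of Sep, Susp and Adh libraries. The authors prepared polyadenylated RNA libraries (TruSeq v2, strand not stated), separated species with Xenome, aligned to GRCm38 or GRCh38 with STAR 2.5.1b and counted with featureCounts of Subread 1.5.2. The deposited counts were whole numbers without normalization. The other 20 columns of the tables hold other samples and were not used. Even numbers made up 65.0% to 79.2% of counts between 1 and 20 per library, and whether both mates of a pair were counted was not settled, so intervals and limits cover counting error only.

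Tests were run with edgeR 4.0.16 under R 4.3.3 (filterByExpr, TMM, glmQLFit with legacy set, glmQLFTest, Benjamini-Hochberg adjustment over all tested genes). The 8 stromal libraries had 1 model with 12201 genes and the 12 REC-1 libraries another with 12861 genes. Calls needed an adjusted p not above 0.05 and a change of 1.5-fold or more. CPM used TMM library sizes, and log2 CPM a prior count of 2. RPKM used unions of exons from GENCODE. Positions and 3′ UTRs came from GENCODE M21, of the same build as the mouse counts. No promoter or protein sequence was used here.

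The genes and all lists were chosen with earlier results of these data known. Named were all 10 genes, the called genes of the 5 eicosanoid lists, up to 4 called genes from each of the other lists in MS-5 cells, the 5 genes most like Ptgs2, and the human counterparts above the filter. Most genes named outside that rule are said to be so. Also outside it, Tbxa2r, Pparg and Ppard were named as tested receptors, and Dusp1 and Zfp36l2 for an unadjusted p below 0.05 in edgeR's test. Alternatives were no low-count filter, 10 counts in every library, upper-quartile scaling, DESeq2 1.42.0, thinning to the smallest library, the replicate number as a block, no fold-change minimum and leaving out replicates. Leaving out Adh replicate 1 alone was added after seeing the data. For REC-1 cells, leaving out Susp replicate 2 alone was a further alternative. The code was tested on simulated counts.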

Additional observations from a re-analysis of the deposited data

Results flagged for a closer look

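In groups of 4 libraries, a library was marked when its distance to the nearest other library was above Dixon's 95% critical value as a share of the group's range, which chance gives in about 1 in 20 groups. Of 67 groups tested, 5 were marked. Ptgs2 in Adh replicate 1 stood at 107.966 CPM, above the other 3 Adh libraries at 78.9 to 83.4 CPM. PTGS1 in Sep replicate 3 stood at 7.53 CPM, above 5.58 to 5.86 CPM. PTGES3 was marked in Sep replicate 1, at 1593.6 CPM above 1357 to 1364 CPM, and in Adh replicate 2, at 1564 CPM below 3 libraries at about 1687 CPM. ALOX5 in Sep replicate 4 stood at 251.3 CPM, above 226.5 to 229.3 CPM. Apart from these single genes, Susp replicate 2 differed from its group as a whole library. Its chi-square per degree of freedom over human genes was 52.8 to 57.4 against the other Susp libraries. Those libraries were at 6.76 to 10.1 among themselves. The main REC-1 tests include Susp replicate 2.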

How the results depend on the processing

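The replicate numbers were not taken as pairs, which would have needed every same-numbered pair to correlate above 0.1 in its deviations from the group means. The correlations were 0.29, 0.08, 0.03 and 0.16 between MS-5 and Adh libraries and 0.31, 0.13, -0.00 and 0.20 between Adh and Sep libraries. In each of these comparisons 6 of 8 libraries correlated best with their own number, against 3 of 8 in each of the other comparisons, which is a hint of pairing from the data. The labels carry the same numbers across the groups, but they do not say whether a number marks a shared experiment. The paper describes Susp and Adh cells as fractions within the cocultures, so same-numbered libraries of these groups may share a culture. The main tests ignore any such pairing. With the replicate block, 45 mouse genes were called in place of 25, 384 in place of 309 between Adh and Sep cells, 175 in place of 94 between Susp and Sep cells, and 281 in place of 100 between Adh and Susp cells with 2 eicosanoid genes in place of 1.

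Mouse calls numbered 45 without a low-count filter, 38 with DESeq2, 94 without a fold minimum, and 7 (without replicate 3) to 27 with libraries left out, and calls among inflammatory genes 1 (without replicate 3 or 4) to 4. Ccl2 kept its call in all 11 alternatives. Between Adh and Sep cells there were 503 calls without the filter, 527 with DESeq2, and 92 (without replicate 4) to 519 (without Susp replicate 2) with libraries left out, and eicosanoid calls were 5 with DESeq2 and 2 to 5 (5 without Susp replicate 2) with libraries left out. Between Susp and Sep cells the counts were 217, 171 and 24 (without replicate 3) to 81, with 0 to 1 eicosanoid calls (1 without Susp replicate 2). Between Adh and Susp cells they were 341, 282 and 25 (without replicate 3) to 89, with 2 eicosanoid calls by DESeq2 and 0 to 1 with libraries left out (0 without replicate 2 or 3). The causes were not tested. No call was made among human counterparts under any alternative, nor did scaling move the median of all genes by 0.1. Genes at a few CPM or less, such as PTGS2 and HPGD, are limited by depth.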
